A study of Macaca fascicularis with 48 samples.

Results

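Liver and lumbar dorsal root ganglia were compared in 4 control cynomolgus monkeys (Macaca fascicularis), using the 8 libraries titled Liver control and DRG Lumbar control among the 48 of the series. The study gave GS-8873, which the design text names as an HBV transcript inhibitor (HBV is hepatitis B virus), by mouth for 13 weeks, and sampled liver, ganglia and spinal cord. The animals compared here were its controls, at 0 mg/kg/day by gavage on the same schedule, 2 males (replicates 1 and 2) and 2 females (replicates 3 and 4). Each animal gave both tissues, so every liver library has a ganglion library from the same monkey. The animals' age, and how many ganglia went into 1 library, are not given in the sources used here. Animals dosed at 6 mg/kg/day, again with 4 libraries per tissue, enter only where the contrast is repeated in them. The comparison asks which genes set monkey liver apart from sensory ganglia when no drug is given.

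Hepatocytes, the main cells of the liver, secrete most plasma proteins, turn ammonia into urea, oxidise drugs, make glucose between meals and convert cholesterol into bile acids. Dorsal root ganglia hold the cell bodies of the neurons that carry touch, temperature, pain and limb position from the body to the spinal cord. Satellite glia wrap each of these cell bodies, Schwann cells ensheathe the axons, and a collagen-rich sheath surrounds the ganglion. Macrophages, endothelium and fibroblasts occur in both tissues.

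Levels are CPM, read counts scaled to library size after TMM scaling, which centres the trimmed log ratios between libraries. Library totals ran from 41031268 to 53480762 counts, and libraries of 1 tissue correlated across genes at 0.978 to 0.987 (Pearson's r of log2 values). A gene was called at an adjusted p under 0.05 in edgeR's quasi-likelihood test with the animal as a block, and every log2 fold change is liver minus ganglia. The SE of an edgeR log2 fold change was derived from that test, as its size over the square root of the F statistic. For genes near 0 counts in 1 tissue it can understate the uncertainty. For CALCB and CKM the range with each animal left out was far wider than the SE. TMM factors were 0.625 to 0.693 in liver and 1.45 to 1.56 in ganglia, so the scaling bears on small differences. With total counts as the only scaling, the median log2 fold change over all genes tested moved from -0.10 to -1.25. Because these are bulk libraries, fewer cells of a type and less RNA per cell cannot be told apart.

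The tissues differed at most genes that could be tested. Of 14192 genes, 10766 (75.9%) were called, 4998 higher in liver (35.2% of those tested) and 5768 higher in ganglia (40.6%). At 8-fold or more the ganglia led, with 1040 genes higher in liver (7.33%) and 2408 higher in ganglia (17%). All 4 liver libraries lay above all 4 ganglion libraries for 4808 genes (33.9%) and below them for 5607 (39.5%). Genes called higher in liver made up 46.4% of all calls under TMM scaling and 17.4% under total counts, and 30.2% and 16.2% of the calls of at least 8-fold. Fitted differences of 10 log2 units or more were found for 173 genes higher in liver and 281 higher in ganglia. For 27 genes with at least 10 CPM in liver the ganglia had 0 counts, and for 80 genes with at least 10 CPM in ganglia the liver had 0 counts. Another 3426 genes were not called.

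**Figure D1:**
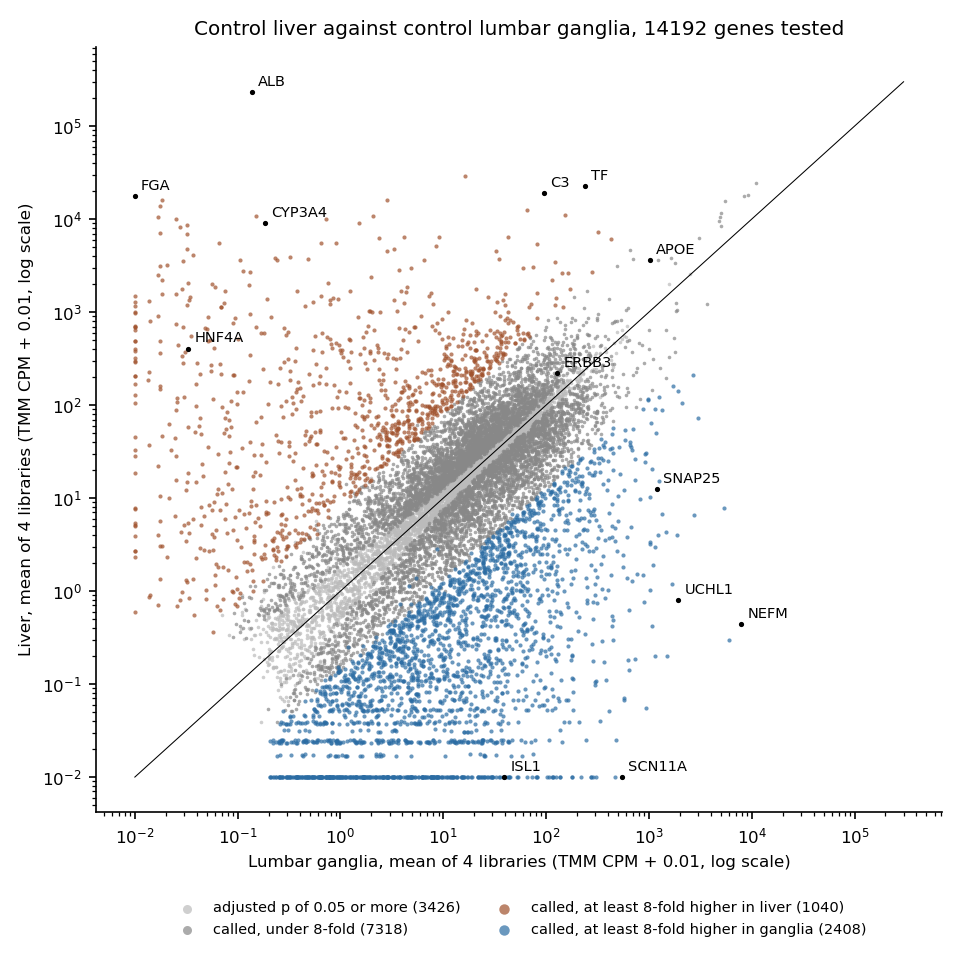
Mean level of each tested gene in 4 control liver libraries (vertical) against 4 control lumbar ganglion libraries (horizontal), as TMM-scaled CPM plus 0.01 on log scales, with the line of equal levels. The 1040 genes called at least 8-fold higher in liver (brown) spread to the upper left as far as ALB and FGA, and the 2408 higher in ganglia (blue) spread to the lower right, down to a bottom row of genes with 0 liver counts such as SCN11A and ISL1.

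Liver transcripts were concentrated in few genes, most of them plasma proteins. The 10 most abundant genes held 27.7 ± 0.766% of liver counts and 10.3 ± 0.857% of ganglion counts, and the 100 most abundant held 56.5 ± 0.881% and 27.1 ± 1.33% (SD, n = 4, two-sided exact permutation p = 0.0286 for each, the smallest that 4 against 4 allows). Genes reaching 1 CPM of total counts numbered 10782 ± 147 in liver and 12842 ± 101 in ganglia (SD, n = 4, exact permutation p = 0.0286). On the TMM scale that cut lay higher in liver than in ganglia, so these numbers do not rest on an equal bar. Counts from the mitochondrial genome took 8.98 ± 1.91% in liver and 9.42 ± 0.925% in ganglia, a difference within the spread between animals (exact permutation p = 0.629). Of the counts outside it, the 10 most abundant genes held 28.8 ± 0.871% in liver and 6.25 ± 0.769% in ganglia (SD, n = 4). Outside the mitochondrial genome, liver was led by ALB, the main plasma protein, at 15.4 ± 0.847% of counts, then SERPINA1 at 1.96 ± 0.172%, TF at 1.52 ± 0.142%, C3 at 1.28 ± 0.0875% and FGA at 1.19 ± 0.17%. Ganglia were led by NEFM, a neurofilament subunit, at 1.18 ± 0.265%, then NEFL at 0.898 ± 0.145% and MAP1B, which binds axonal microtubules, at 0.791 ± 0.128%. These shares grow with transcript length as well as with the number of transcripts. The permutation tests shuffled all libraries between the tissues and did not use the pairing by animal.

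Plasma proteins had the highest medians of the 12 liver lists. All 12 plasma transport proteins tested were higher in liver, and each was at least 8-fold higher (median log2 fold change 14.36). Over all genes tested the median was -0.10, 35.2% were higher in liver and 7.33% at least 8-fold higher there. ALB stood at 243720, 234740, 215220 and 227060 CPM in liver replicates 1 to 4 and at 0.238, 0.0828, 0.131 and 0.061 CPM in the matching ganglia (log2 fold change 20.81 ± 0.72 SE, adjusted p = 3.42e-06). The 4 ganglion libraries together held 34 ALB counts. TF, the iron carrier transferrin, had 22015, 21817, 24730 and 21679 CPM in liver and 351, 227, 146 and 228 CPM in ganglia (log2 fold change 6.63 ± 0.37 SE, adjusted p = 1.64e-05). RBP4, which carries retinol, had 10664, 13150, 12977 and 13295 CPM in liver and 46.2, 58.9, 105 and 50 CPM in ganglia (log2 fold change 7.67 ± 0.33 SE, adjusted p = 6.77e-06). Both were counted in every ganglion library, and the groups did not overlap. The remaining members ran from 438 CPM in liver for SERPINA7, the thyroxine carrier, to 10514 CPM for AMBP, the precursor of a plasma protease inhibitor.

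Of the coagulation factors, 19 of 19 tested were higher in liver, all at least 8-fold (median 11.39). The fibrinogen chains FGA, FGB and FGG, which polymerise into the clot, lie together on chromosome 5 of Macaca_fascicularis_5.0. FGB runs from 153803541 to 153812541 on the plus strand, FGA from 153826235 to 153833007 and FGG from 153846421 to 153855124, both on the minus strand. FGA had 21272, 17814, 15869 and 15826 CPM in liver and 0 counts in every ganglion library, a level at least 1566700-fold higher against a floor of 3 counts over the 4 ganglion libraries. FGB had 18276, 17431, 14449 and 14552 CPM in liver and 2 counts in ganglia, both in replicate 3. FGG had 16220, 13934, 12751 and 12334 CPM in liver and 2 counts in ganglia, both in replicate 1. All 3 chains were among the most abundant transcripts in liver and at or near 0 in every ganglion library. SERPINC1, the thrombin inhibitor antithrombin, had 5130.4, 5651, 5814 and 5363 CPM in liver and 0.387, 0.469, 0.686 and 0.992 CPM in ganglia (log2 fold change 13.14 ± 0.40 SE, adjusted p = 2.68e-06). The smallest difference was that of PROS1, protein S (3.06 ± 0.24 SE), which reached 145 CPM in ganglia.

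All 12 complement genes tested were higher in liver, again all at least 8-fold (median 14.15). C3, the central component, had 18889, 18693, 20019 and 18619 CPM in liver and 59, 45.2, 99.9 and 174 CPM in ganglia (log2 fold change 7.86 ± 0.48 SE, adjusted p = 2.61e-05). C9, which forms the membrane pore, had 4298, 3898, 4039.7 and 4045 CPM in liver and at most 0.0653 CPM in any ganglion library. C5 had 1538, 1942, 2195 and 1698 CPM in liver and 3.63, 4.54, 3.99 and 5.71 CPM in ganglia (log2 fold change 8.70 ± 0.25 SE, adjusted p = 2.58e-06). C3 and C5 were measurable in every ganglion library, while the pore component C9 was missing from 2 of the 4. Of the protease inhibitors and acute phase proteins, 15 of 15 were higher in liver (median 11.24). SERPINA1, alpha-1-antitrypsin, led them with 29089, 29013, 31770 and 26668 CPM in liver and 12.8, 21.3, 14.1 and 17.1 CPM in ganglia (log2 fold change 10.82 ± 0.37 SE, adjusted p = 3.36e-06). HRG, histidine-rich glycoprotein, had 7868, 9703, 9428 and 7786 CPM in liver and at most 0.0327 CPM in ganglia.

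The lipoprotein genes were higher in liver in 14 of 14 cases, 12 of them at least 8-fold (median 12.52). APOB, the scaffold of very-low-density lipoprotein, had 16638, 14962, 17515 and 15551 CPM in liver and 3.35, 3.15, 2.6 and 2.26 CPM in ganglia (log2 fold change 12.49 ± 0.34 SE, adjusted p = 2.35e-06). APOA1, the main protein of high-density lipoprotein, had 3943, 3955, 4344 and 3566 CPM in liver and 0.327, 0.0828, 0.539 and 0.305 CPM in ganglia (log2 fold change 13.71 ± 0.54 SE, adjusted p = 5.34e-06). APOE, which glia also secrete, was the closest of the list, with 3771, 4216, 2868 and 3682 CPM in liver and 1100.2, 830.2, 1047 and 1124 CPM in ganglia (log2 fold change 1.82 ± 0.21 SE, adjusted p = 0.000342). Every liver library still lay above every ganglion library for APOE, and its log2 fold change was 0.67 under total counts.

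Nitrogen metabolism was the longest uniform liver list. All 31 genes of the urea cycle and amino acid breakdown were at least 8-fold higher in liver (median 9.98). BHMT, which remethylates homocysteine, had 8719, 8629.7, 7595 and 11377 CPM in liver and 0.774, 2.51, 1.52 and 1.27 CPM in ganglia (log2 fold change 12.63 ± 0.51 SE, adjusted p = 5.66e-06). CPS1, which starts the urea cycle, had 7228, 8258, 6234 and 6592 CPM in liver and 2 counts in ganglia, both in replicate 1. TAT, which opens tyrosine breakdown, had 4149, 6263, 5084 and 3669.6 CPM in liver and 0.0298, 0.0138, 0 and 0.0458 CPM in ganglia (log2 fold change 17.54 ± 0.54 SE, adjusted p = 2.68e-06, range 17.16 to 18.18 with each animal left out in turn). MAT1A, the liver's S-adenosylmethionine synthase, had 4681, 4691, 4579 and 4209 CPM in liver and 0.878, 2.95, 3.48 and 4.01 CPM in ganglia (log2 fold change 10.79 ± 0.58 SE, adjusted p = 1.49e-05). Of this list, FAH, the last step of tyrosine breakdown, differed least (log2 fold change 3.47).

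Sugar metabolism was the 1 liver list with a member that was not called. Of 13 glucose and fructose genes, 12 were called higher in liver, each at least 8-fold (median 5.13). PCK1, the entry to gluconeogenesis, had 8492, 16748, 10674 and 7525 CPM in liver and 0.64, 1.42, 5.52 and 0.58 CPM in ganglia (log2 fold change 12.94 ± 0.81 SE, adjusted p = 2.7e-05, range 12.67 to 13.62 with each animal left out in turn). G6PC, which releases free glucose, had 1594, 3219, 2099 and 1394 CPM in liver and at most 0.061 CPM in ganglia. PCK1 and G6PC were both highest in the liver of replicate 2.

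Bile acid genes were higher in liver in 17 of 17 cases, 15 of them at least 8-fold (median 8.90). SLCO1B1, an uptake carrier for organic anions, had 2740.2, 3254, 2496 and 2982 CPM in liver and 2.78, 4.58, 5.16 and 2.37 CPM in ganglia (log2 fold change 9.65 ± 0.36 SE, adjusted p = 4.63e-06). SLC10A1, the bile salt carrier that hepatitis B virus uses to enter cells, had 665, 596, 844 and 637 CPM in liver and 0.119, 0.179, 0.098 and 0.168 CPM in ganglia (log2 fold change 12.20 ± 0.29 SE, adjusted p = 2.11e-06). BAAT, which joins bile acids to amino acids, had 1102, 1550, 650.1 and 768 CPM in liver and 2.65, 1.95, 1.76 and 1.4 CPM in ganglia (log2 fold change 8.99 ± 0.29 SE, adjusted p = 2.94e-06). These 3 genes were below 6 CPM in every ganglion library.

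Drug and alcohol metabolism was measured by 16 tested genes, all at least 8-fold higher in liver (median 9.12); CYP1A2, at 0.447 CPM in liver, was in the table but under the minimum for testing. CYP3A4, the main drug-oxidising P450, had 10763, 10441, 7035 and 7811 CPM in liver and 0.0595, 0.511, 0 and 0.122 CPM in ganglia (log2 fold change 15.93 ± 0.91 SE, adjusted p = 1.92e-05, range 15.53 to 17.06 with each animal left out in turn). CYP2E1 had 9975, 6202, 4329.9 and 7491 CPM in liver and at most 0.0552 CPM in ganglia. ADH1B, an alcohol dehydrogenase, had 4754, 6199.6, 8392 and 6534 CPM in liver and 4.98, 10.1, 10.2 and 11.3 CPM in ganglia (log2 fold change 9.50 ± 0.29 SE, adjusted p = 2.68e-06). CYP genes form families of near copies, so reads could be split between members in the authors' counting. The 16 genes of fatty acid oxidation were all higher in liver, 12 of them at least 8-fold, with the lowest median of the liver lists (4.25). CAT, catalase, had 5407, 6830, 6764 and 6749.5 CPM in liver and 35.8, 36.3, 51.3 and 48.3 CPM in ganglia (log2 fold change 7.24 ± 0.24 SE, adjusted p = 2.93e-06).

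Transcription factors of hepatocytes followed the same split. All 20 were higher in liver, 19 of them at least 8-fold (median 6.63). HNF4A, the nuclear receptor that heads the list, had 521, 379, 306 and 413 CPM in liver and 0, 0.0276, 0.0653 and 0 CPM in ganglia (log2 fold change 13.97 ± 0.53 SE, adjusted p = 4.71e-06, range 13.43 to 15.13 with each animal left out in turn). CREB3L3, a membrane-bound factor active in fasting, had 299, 377, 262 and 351 CPM in liver and 3.33, 2.81, 3.97 and 2.73 CPM in ganglia (log2 fold change 6.65 ± 0.24 SE, adjusted p = 4.1e-06). NR1I2, the xenobiotic receptor PXR, had 163, 122, 169.5 and 152 CPM in liver and 0.461, 0.304, 0.555 and 0.244 CPM in ganglia (log2 fold change 8.62 ± 0.20 SE, adjusted p = 2.11e-06). Of the hormones and iron regulators made or sensed in the liver, 13 of 13 were higher in liver (median 8.53). IGFBP1, a binding protein for insulin-like growth factors that rises with fasting, had 1256, 5452, 4669 and 3198 CPM in liver and 0.402, 0.138, 0.163 and 0.214 CPM in ganglia (log2 fold change 13.77 ± 0.82 SE, adjusted p = 2.3e-05, range 13.30 to 14.60 with each animal left out in turn). TFR2, the hepatocyte's iron sensor, had 1673, 1487, 1652 and 1533 CPM in liver and 7.25, 7.48, 8.18 and 7.39 CPM in ganglia (log2 fold change 7.71 ± 0.17 SE, adjusted p = 2.06e-06).

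**Figure D2:**
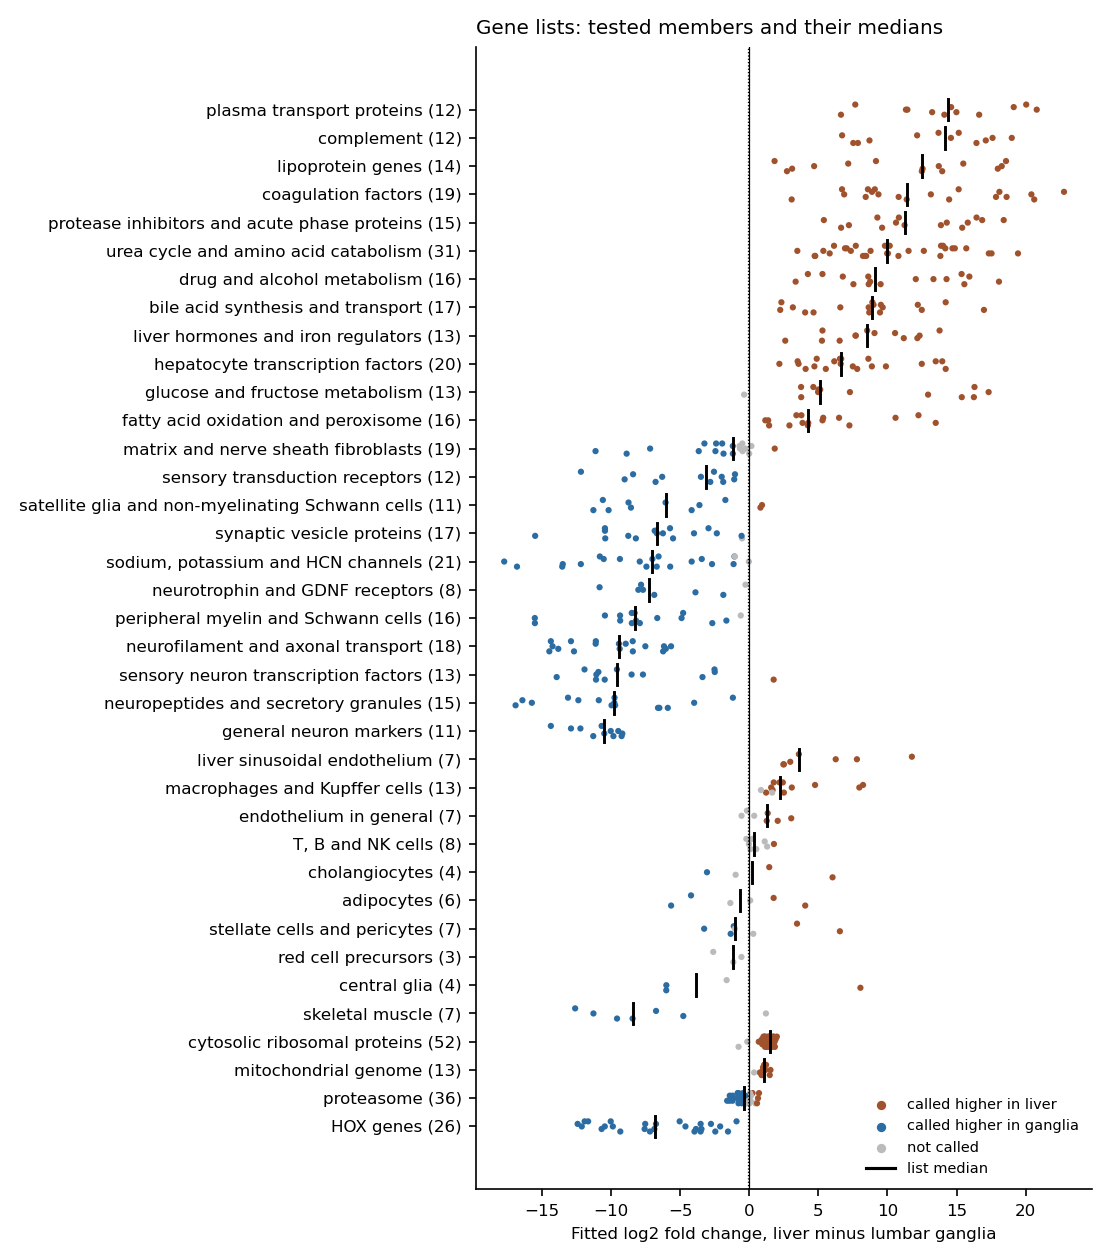
Fitted log2 fold change (liver minus lumbar ganglia) of each tested member of 37 gene lists, with the number tested in brackets, the list median as a bar and the median of all genes as a dotted line beside 0. Members of the 12 liver lists all lie to the right except 1, those of the 11 ganglion lists lie mostly to the left, and ribosomal, mitochondrial and proteasome genes sit within 2 log2 units of 0; points of genes with 0 counts in 1 tissue are fitted values without a true upper limit.

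On the ganglion side, the transcription factors that specify sensory neurons were higher in ganglia in 12 of 13 cases, 10 of them at least 8-fold, where 40.6% and 17% of all genes tested were (median -9.60, or -8.53 with members at 0 liver counts placed at their bound). ISL1 had 36.2, 38.8, 45.3 and 36 CPM in ganglia and 0 counts in all 4 livers, at least 1828-fold higher. ETV1, a factor of proprioceptive neurons, had 101, 127, 71.3 and 87 CPM in ganglia and 16.4, 19.6, 18.6 and 12 CPM in liver (log2 fold change -2.53 ± 0.17 SE, adjusted p = 3.84e-05). CUX2 went the other way, with 43.3, 33.9, 55.4 and 27.6 CPM in liver and 11.5, 12.1, 12.1 and 10.2 CPM in ganglia (log2 fold change 1.76 ± 0.16 SE, adjusted p = 0.000148), and every liver library lay above every ganglion library.

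General neuron markers were at least 8-fold higher in ganglia in 11 of 11 cases (median -10.51). UCHL1, an abundant neuronal deubiquitinase, had 2149.8, 1833, 1992 and 1781 CPM in ganglia and 0.638, 0.48, 0.704 and 1.33 CPM in liver (log2 fold change -11.31 ± 0.38 SE, adjusted p = 3.52e-06). THY1, a neuronal surface glycoprotein, had 1621, 1743, 1876 and 1402 CPM in ganglia and 0.464, 1.08, 1.35 and 1.89 CPM in liver (log2 fold change -10.51 ± 0.46 SE, adjusted p = 7.29e-06). TUBB3, the neuronal tubulin, had 1720.2, 1473, 1579 and 1254 CPM in ganglia and 0.058, 0.18, 0.217 and 0.305 CPM in liver (log2 fold change -12.92 ± 0.44 SE, adjusted p = 3.42e-06). All 3 were above 1000 CPM in every ganglion library and below 2 CPM in every liver.

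Outside the mitochondrial genome, genes of the axonal skeleton led the ganglion ranking by counts. All 18 neurofilament and transport genes were at least 8-fold higher in ganglia (median -9.42). NEFM had 10715, 7924, 6588 and 6482 CPM in ganglia and 0, 0.901, 0.271 and 0.555 CPM in liver (log2 fold change -14.26 ± 0.95 SE, adjusted p = 3.47e-05, range -14.80 to -13.66 with each animal left out in turn). NEFL, the light subunit, had 7649.5, 5856, 5549.7 and 5114 CPM in ganglia and 0, 0.721, 0.0541 and 0.389 CPM in liver (log2 fold change -14.49 ± 0.96 SE, adjusted p = 3.45e-05, range -15.34 to -13.95 with each animal left out in turn). NEFH, the heavy subunit of large myelinated axons, had 4095, 2057, 2389.9 and 2389 CPM in ganglia and 3.54, 15.1, 4.06 and 3.75 CPM in liver (log2 fold change -8.96 ± 0.67 SE, adjusted p = 5.76e-05, range -9.56 to -8.55 with each animal left out in turn). All 3 subunits were highest in the ganglia of replicate 1, and NEFH there stood apart from the other 3 animals. MAP1B had 5914, 6427, 4443 and 4519 CPM in ganglia and 6.56, 7.39, 10.2 and 7.47 CPM in liver (log2 fold change -9.40 ± 0.33 SE, adjusted p = 3.81e-06).

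Voltage-gated channels included the widest ganglion differences. Of 21 sodium, potassium and HCN channel genes, 19 were higher in ganglia and 16 of these at least 8-fold (median -7.03). SCN11A and SCN10A encode the tetrodotoxin-resistant sodium channels of nociceptors, and are neighbours on chromosome 2, at 93755451 to 93863607 and 93598414 to 93704360, both on the minus strand. SCN11A had 365, 749, 617 and 458 CPM in ganglia and 0 liver counts, at least 25821-fold higher. SCN10A had 251, 362, 297 and 242 CPM in ganglia and 0 liver counts, at least 13585-fold higher. SCN9A, another sodium channel of nociceptors, had 215, 264, 219 and 217 CPM in ganglia and 6.67, 5.4, 2.57 and 3.44 CPM in liver (log2 fold change -5.74 ± 0.27 SE, adjusted p = 9.24e-06). SCN7A, a sodium-sensing relative also found in glia, was counted in liver too, at 22.4, 119, 187 and 7.97 CPM in liver and 279.6, 297, 315 and 353 CPM in ganglia (log2 fold change -2.71 ± 0.88 SE, adjusted p = 0.0307, range -3.48 to -1.85 with each animal left out in turn). Its liver values spread widely, and its call was lost without replicate 1 (-2.27, adjusted p = 0.111) and without the animal block (adjusted p = 0.0502). SCN3A and KCND3 were not called.

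Sensory transduction receptors had the median nearest 0 of the neuronal lists. All 12 tested were higher in ganglia with no overlap between groups (39.5% of all genes lay so), but only 6 reached 8-fold (median -3.17). HTR3A, an ion channel opened by serotonin, had 657, 840.3, 859 and 697 CPM in ganglia and 2.41, 1.44, 1.52 and 0.722 CPM in liver (log2 fold change -9.04 ± 0.37 SE, adjusted p = 6.04e-06). PIEZO2, the touch and position sensor, had 163, 170.4, 132 and 138 CPM in ganglia and 50.7, 27.9, 31.7 and 43.5 CPM in liver (log2 fold change -2.01 ± 0.18 SE, adjusted p = 0.000128). P2RX3, the ATP-gated channel of nociceptors, had 170.1, 124, 120.5 and 144 CPM in ganglia and 46.7, 102, 12.4 and 32.6 CPM in liver (log2 fold change -1.90 ± 0.47 SE, adjusted p = 0.011). Both were counted above 10 CPM in every liver. TRPV2, a heat-sensitive channel, had 79.8, 89.4, 105 and 70.2 CPM in ganglia and 8.9, 4.05, 10.8 and 7.58 CPM in liver (log2 fold change -3.51 ± 0.25 SE, adjusted p = 4.78e-05). The authors' counting did not use strand, per the file headers, so reads of a gene and of one that overlaps it on the other strand cannot be told apart.

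Peptides and secretory granule genes were higher in ganglia in 15 of 15 cases, 14 at least 8-fold (median -9.78). TAC1, the substance P precursor, had 368, 312, 353 and 201 CPM in ganglia and 0 liver counts, at least 14470-fold higher. CALCB, which encodes a calcitonin gene-related peptide, had 395, 507, 454 and 298 CPM in ganglia and 0, 0, 0 and 0.167 CPM in liver (log2 fold change -13.14 ± 0.66 SE, adjusted p = 1.21e-05, range -17.49 to -12.66 with each animal left out in turn). SCG3, a granule sorting protein, had 364, 419, 525 and 438 CPM in ganglia and 0.319, 0.36, 1.14 and 0.305 CPM in liver (log2 fold change -9.78 ± 0.34 SE, adjusted p = 3.9e-06). PAM, the enzyme that amidates peptides, was the exception in size, with 263, 327, 283 and 254 CPM in ganglia and 125, 129, 122 and 114 CPM in liver (log2 fold change -1.20 ± 0.10 SE, adjusted p = 8.08e-05). Liver therefore held PAM at over 100 CPM in each library while TAC1 and CALCB were at or near 0 there.

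The receptors for nerve growth factor and GDNF ligands were higher in ganglia in 7 of 8 cases, 6 at least 8-fold (median -7.30). RET, the signalling subunit for GDNF ligands, had 463, 513, 563 and 422 CPM in ganglia and 3.6, 1.14, 5.6 and 0.527 CPM in liver (log2 fold change -7.85 ± 0.62 SE, adjusted p = 7.33e-05). NGFR, the low-affinity neurotrophin receptor, had 351, 399, 523 and 534 CPM in ganglia and 26, 35.2, 38.9 and 21.4 CPM in liver (log2 fold change -3.91 ± 0.22 SE, adjusted p = 1.98e-05). GFRA3, the artemin co-receptor, was not called, at 23 ± 4.86 CPM in ganglia and 19.2 ± 6.16 CPM in liver (SD, n = 4, log2 fold change -0.29 ± 0.15 SE, adjusted p = 0.134). Under total counts it was called higher in ganglia (-1.44), and with cervical ganglia in place of lumbar it stood at 0.13.

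Synaptic vesicle genes were higher in ganglia in 16 of 17 cases, 13 at least 8-fold (median -6.70). SNAP25, a fusion protein of the neuronal membrane, had 1302, 1324, 1119 and 1074 CPM in ganglia and 6.24, 21.2, 10.1 and 12.7 CPM in liver (log2 fold change -6.70 ± 0.36 SE, adjusted p = 1.6e-05). NSF, which takes fusion complexes apart in every cell, had 668, 795, 551 and 585 CPM in ganglia and 41.2, 36, 40.8 and 41.4 CPM in liver (log2 fold change -4.01 ± 0.17 SE, adjusted p = 6.61e-06). The member not called was SLC17A8, a vesicular glutamate carrier, at 3.89 ± 0.906 CPM in ganglia and 3.25 ± 2.28 CPM in liver (SD, n = 4).

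Schwann cell genes were also higher in ganglia. Of 16 peripheral myelin and Schwann cell genes, 15 were higher in ganglia, 13 at least 8-fold (median -8.26), and MAG was not called. PMP22 had 1077, 772, 991 and 1279 CPM in ganglia and 9.19, 6.63, 12.7 and 12.4 CPM in liver (log2 fold change -6.67 ± 0.19 SE, adjusted p = 2.49e-06). MBP had 1019.7, 521, 977 and 1189 CPM in ganglia and 25.1, 40.1, 27.6 and 27.9 CPM in liver (log2 fold change -4.91 ± 0.36 SE, adjusted p = 5.33e-05). PMP22 and MBP were both lowest in the ganglia of replicate 2. The satellite glia list was less uniform, with 9 genes higher in ganglia, 8 at least 8-fold, and 2 higher in liver (median -6.07). L1CAM, an adhesion molecule on this list, had 417, 399, 532 and 449.9 CPM in ganglia and 0.464, 0.3, 0.108 and 0.278 CPM in liver (log2 fold change -10.62 ± 0.38 SE, adjusted p = 4.02e-06). Bulk libraries do not show which ganglion cells, glia or neurons, held L1CAM. ERBB3, the neuregulin receptor, had 205, 248, 238 and 188 CPM in liver and 92.5, 114, 148 and 159.7 CPM in ganglia (log2 fold change 0.80 ± 0.18 SE, adjusted p = 0.00679), a direction that turned under total counts (-0.35). CDH2, N-cadherin, was likewise higher in liver (log2 fold change 0.91 ± 0.09 SE, adjusted p = 0.000143) and lower under total counts (-0.24), where no gene of the satellite glia list was called higher in liver.

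Matrix and nerve sheath genes had the median nearest 0 of the 11 ganglion lists. Of 19 tested, 11 were higher in ganglia, 5 at least 8-fold, 1 was higher in liver and 7 were not called (median -1.20). Over all genes tested 40.6% were higher in ganglia, 17% at least 8-fold, and 35.2% were higher in liver. Under total counts 18 were higher in ganglia, where 9785 of all 14192 genes were. SPARC, a collagen-binding protein, had 2898, 2147, 2643 and 3023 CPM in ganglia and 217, 257, 177 and 192 CPM in liver (log2 fold change -3.67 ± 0.22 SE, adjusted p = 2.39e-05). APOD, a lipocalin of nerve fibroblasts and Schwann cells, had 994, 1099.9, 536 and 1517 CPM in ganglia and 9.86, 1.62, 1.08 and 0.805 CPM in liver (log2 fold change -8.89 ± 0.84 SE, adjusted p = 0.000151, range -9.73 to -8.28 with each animal left out in turn). COL1A2, a chain of type I collagen, had 441, 254, 211 and 337 CPM in ganglia and 54.1, 47.8, 63.6 and 52.9 CPM in liver (log2 fold change -2.46 ± 0.23 SE, adjusted p = 0.000135). DCN, the proteoglycan decorin, was at 417, 454, 245 and 660 CPM in ganglia and 243, 295, 270.3 and 218 CPM in liver and was not called (log2 fold change -0.71 ± 0.28 SE, adjusted p = 0.0554); it was called higher in ganglia without replicate 3 (adjusted p = 0.0154). The gene called in the other direction was CLDN1, a tight junction protein that also lines the perineurium, at 162, 123, 168 and 153 CPM in liver and 34.3, 62.4, 23.9 and 61.4 CPM in ganglia (log2 fold change 1.83 ± 0.32 SE, adjusted p = 0.00249), not called under total counts (0.68, adjusted p = 0.104).

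The 10 largest fitted differences were also listed by single gene. On the liver side they included FGA, ALB, FGB, FGG, AMBP, CPS1, AFM, GC and C4BPA. AFM, an ALB relative that carries vitamin E, lies near ALB on chromosome 5, at 61096349 to 61116498 against 61181500 to 61199596, both on the minus strand. AFM had 1097, 1402, 1612 and 1855 CPM in liver and 0 ganglion counts, at least 133080-fold higher. GC, the vitamin D carrier of the same family, had 10633, 8776, 9304 and 10995 CPM in liver and 4 ganglion counts, all in replicate 1. C4BPA, a complement inhibitor, had 1179.5, 1278, 1332 and 1377 CPM in liver and 0 ganglion counts, at least 114860-fold higher. For genes with 2 ganglion counts the ratio of means carries a wide 95% counting interval. It was 594400 to 17730000 for FGB, 507940 to 15151000 for FGG, 385410 to 11496000 for AMBP and 259910 to 7752600 for CPS1, and covers counting error only.

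On the ganglion side the 10 were SCN11A, TMEM233, TAC1, SCN10A, RPH3A, CHP2, CHGB, NMNAT2, ELOVL4 and CALCA, each with 0 counts in all 4 livers. TMEM233, a small membrane protein of sensory neurons, had 379.7, 586, 511 and 415 CPM in ganglia, at least 22273-fold higher. RPH3A, a binder of synaptic vesicle RAB proteins, had 209, 297, 317 and 265 CPM in ganglia, at least 12745-fold higher. CHP2, a calcineurin-like calcium binder, had 257, 285, 296 and 248 CPM in ganglia, at least 12724-fold higher. The group therefore mixes channels and peptides of nociceptors with genes of wider neuronal use. CHGB, a core protein of dense granules, had 206, 249.8, 199 and 223 CPM in ganglia, at least 10340-fold higher. NMNAT2, the enzyme that supplies NAD to axons, had 179, 226, 164 and 147 CPM in ganglia, at least 8452-fold higher. ELOVL4, which elongates very long fatty acids, had 168, 209, 186 and 147 CPM in ganglia, at least 8366-fold higher. CALCA, the other calcitonin gene-related peptide gene, had 138, 186, 119.6 and 106 CPM in ganglia, at least 6509-fold higher. Each bound is a lower limit set by the floor of 3 counts over the 4 livers, and gives no upper value.

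**Figure D3:**
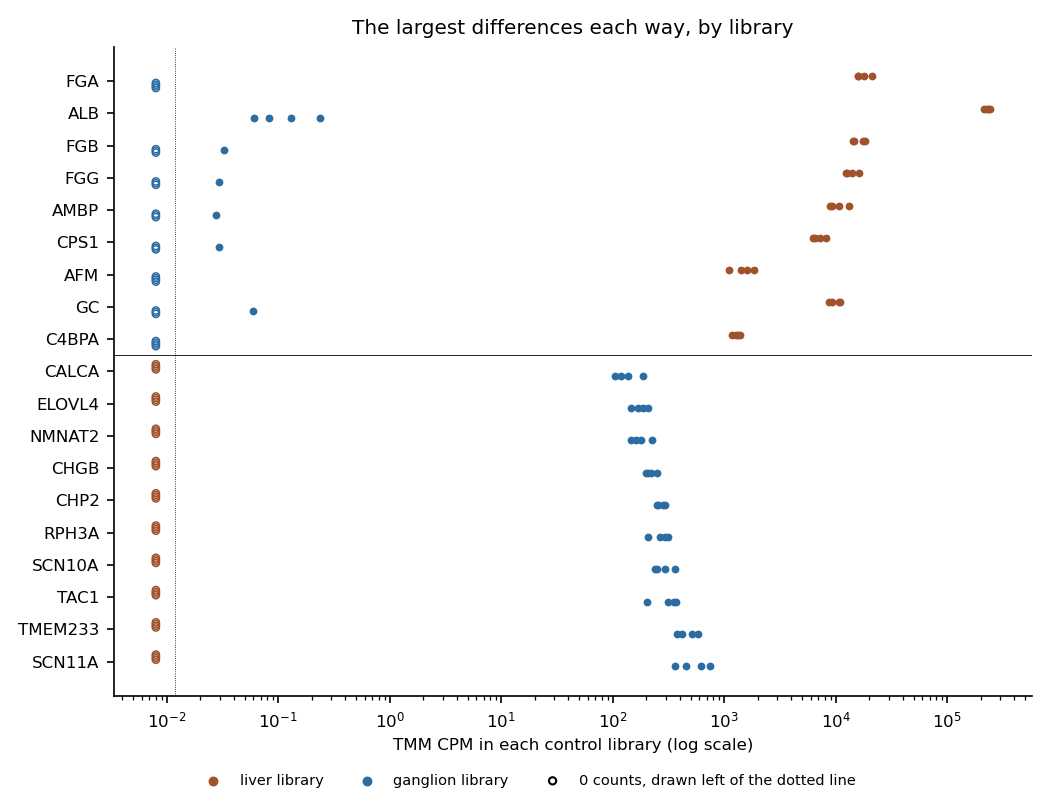
TMM-scaled CPM (log axis) in each of the 4 liver (brown) and 4 lumbar ganglion (blue) control libraries for 9 of the 10 largest differences towards liver and the 10 largest towards ganglia, with 0 counts drawn as open circles left of the dotted line. Liver-high genes sit above 1000 CPM in every liver, ganglion-high genes between 100 and 1000 CPM in every ganglion library, and all 10 ganglion-high genes have 0 counts in every liver.

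Related enzymes, carriers and other proteins were listed in pairs, 1 member as the liver form and 1 as the other form. Of 24 such pairs listed, 17 had both members in the table, and in 12 the first form was called higher in liver and the second higher in ganglia. Over all genes tested 35.2% were higher in liver and 40.6% higher in ganglia. Compared per kilobase of transcript, the form listed for liver led in liver and the other led in ganglia in 16 of 17 pairs. These include the enolases, where the lead of ENO2 over ENO1 in ganglia was smaller than the SD of either. The translation elongation factor EEF1A2 was at 276 ± 30.4 CPM per kb in ganglia and 0.00864 ± 0.0173 in liver (SD, n = 4). Its partner EEF1A1 was at 854 ± 79.3 in liver and 119 ± 14.1 in ganglia, so that both forms were present in ganglia and 1 in liver. Sulfotransferases crossed as well, SULT2A1 at 265 ± 69.9 CPM per kb in liver and SULT4A1 at 148 ± 12.3 in ganglia.

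In the other 5 pairs, 1 member was not called in the direction listed for it. PCK2, the mitochondrial partner of PCK1, was higher in liver too, at 275 ± 30.1 CPM per kb against 2.05 ± 0.283 (log2 fold change 7.07 ± 0.21 SE, adjusted p = 2.61e-06). MAT2A, GYS1 and ARG2, the forms listed for other tissues, were not called (adjusted p = 0.132, 0.556 and 0.405 in edgeR). ENO1, listed as the liver enolase, was slightly higher in ganglia (log2 fold change -0.34 ± 0.12 SE, adjusted p = 0.0466), where it stood at 331 ± 32.4 CPM per kb beside 338 ± 45.1 for ENO2. That call was lost without replicate 1, 3 or 4 (adjusted p of 0.119 to 0.143). CPT1A, the mitochondrial carnitine palmitoyltransferase, led its pair in both tissues, at 129.7 ± 10.6 CPM per kb in liver and 58.4 ± 5.92 in ganglia, where CPT1C reached 10.4 ± 0.643. PFKL was called higher in liver (log2 fold change 0.56 ± 0.11 SE, adjusted p = 0.00441) but lower under total counts (-0.59), while PFKP was higher in ganglia (log2 fold change -5.54 ± 0.21 SE, adjusted p = 4.71e-06).

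**Figure D4:**
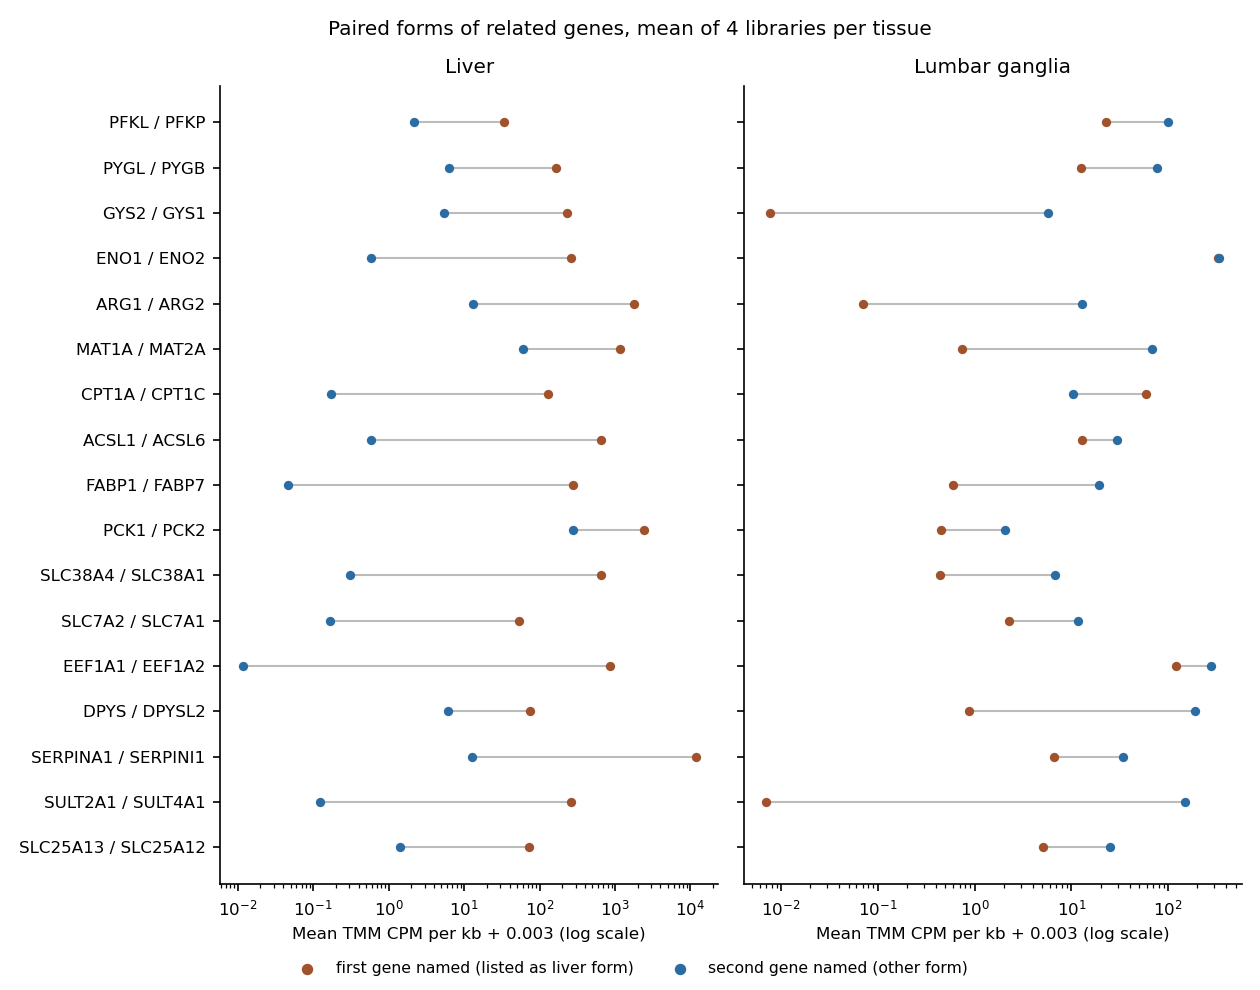
Mean level per kilobase (TMM-scaled CPM per kb plus 0.003, log axis, 4 libraries per tissue) of 17 pairs of related genes in liver (left) and lumbar ganglia (right), the form listed for liver in brown and the other form in blue. Brown leads in liver in all pairs, and blue leads in ganglia in all pairs but CPT1A and CPT1C. The lead of ENO2 over ENO1 in ganglia is smaller than the SD of either.

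HOX genes, transcription factors that mark position along the trunk, were higher in ganglia throughout. They were called so in 26 of 26 tested, 21 of them at least 8-fold (median -6.83, or -6.49 with members at 0 liver counts at their bound). The groups did not overlap for any of them. Of all genes tested, 40.6% were higher in ganglia and 17% at least 8-fold, and ganglia lay above without overlap for 39.5%. HOXA7 had 33.9, 31.1, 34.4 and 31.8 CPM in ganglia and 0.174, 0, 0.541 and 0.444 CPM in liver (log2 fold change -6.88 ± 0.57 SE, adjusted p = 9.04e-05). HOXA9 had 33.1, 23, 31.7 and 25.3 CPM in ganglia and 0, 0.06, 0.162 and 0.389 CPM in liver (log2 fold change -7.55 ± 0.61 SE, adjusted p = 7.64e-05, range -8.57 to -7.08 with each animal left out in turn). HOXD1 had 14.8, 13.2, 13 and 13.7 CPM in ganglia and 0 liver counts, at least 642-fold higher. The liver did hold some anterior HOX transcripts, such as HOXB3 at 3.97, 3.81, 3.79 and 2.22 CPM against 13.1, 12.9, 17.5 and 15.6 CPM in ganglia (log2 fold change -2.12 ± 0.23 SE, adjusted p = 0.000283). The smallest difference was that of HOXB4 (log2 fold change -0.93 ± 0.26 SE, adjusted p = 0.0163), whose call was lost without replicate 1 (adjusted p = 0.0585) or 4 (adjusted p = 0.0705). The 9 members not tested were under the count minimum, among them the most posterior genes HOXA13, HOXC13 and HOXD13.

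Markers of cells that both tissues can hold were also counted. Over all genes tested 35.2% were higher in liver, 7.33% at least 8-fold, and 40.6% were higher in ganglia. Under total counts 2057 of 14192 genes were higher in liver and 9785 higher in ganglia. Of 13 macrophage and Kupffer cell genes, 11 were higher in liver, 4 at least 8-fold (median 2.18), and their summed level was 1169 to 3279.6 CPM in liver and 262 to 463 CPM in ganglia. Under total counts 3 of them were called, and 3 without the animals of replicates 1 and 4. CD14, a receptor for bacterial lipid that hepatocytes also make, had 509.7, 579, 479.5 and 320 CPM in liver and 15, 23.9, 13 and 18.4 CPM in ganglia (log2 fold change 4.75 ± 0.23 SE, adjusted p = 1.09e-05). CD5L, a secreted macrophage protein, had 509, 116, 638 and 395 CPM in liver and 0.774, 0.786, 1.63 and 3.54 CPM in ganglia (log2 fold change 7.96 ± 0.56 SE, adjusted p = 4.26e-05). CD163, the haemoglobin scavenger receptor, was not called, at 234, 43.3, 339 and 165 CPM in liver and 61, 69.7, 28 and 55.1 CPM in ganglia (log2 fold change 1.65 ± 0.69 SE, adjusted p = 0.0683, range 0.99 to 2.36 with each animal left out in turn), but was called without replicate 2 (2.36, adjusted p = 0.00503). CSF1R, the receptor for the macrophage growth factor, was also not called, at 159 ± 81.7 CPM in liver and 79.7 ± 24.8 CPM in ganglia (SD, n = 4), but was called without replicate 2 (adjusted p = 0.00614). The liver of replicate 2 was the lowest of the 4 for CD5L and CD163. Liver sinusoidal endothelium was marked by 7 of 7 genes higher in liver (median 3.58). OIT3, a secreted protein of those vessels, had 235, 198, 240.3 and 190 CPM in liver and 0.119, 0.0552, 0.0327 and 0.0305 CPM in ganglia (log2 fold change 11.77 ± 0.28 SE, adjusted p = 2.11e-06). General endothelial genes were higher in liver in 4 of 7 cases (median 1.25), and in 2, with 2 higher in ganglia, under total counts.

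Lymphocyte markers were low in both tissues. For comparison, 75.9% of all genes tested were called, 35.2% higher in liver and 40.6% higher in ganglia. Of 8 genes of T, B and NK cells, 1 was called, MS4A1, higher in liver at 3.05, 0.69, 2.95 and 6.83 CPM against 1.41, 0.262, 1.45 and 0.504 CPM (log2 fold change 1.77 ± 0.55 SE, adjusted p = 0.0257, range 1.16 to 2.08 with each animal left out in turn). Under total counts 0 of the 8 were called higher in liver and 3 higher in ganglia, where 9785 of all 14192 genes were higher in ganglia. Tested against a 2-fold difference, 0 of the 8 were called. None of 3 red cell genes tested was called in edgeR with the animal as a block and all 4 animals, and none had an unadjusted p under 0.05. Without the block, or without replicate 4, edgeR called 1 of them higher in ganglia, while DESeq2 called 1 and limma 2. HBB, beta-globin, was at 72.1, 129.8, 189 and 98.6 CPM in liver and 278, 30.6, 943 and 87 CPM in ganglia, high in the ganglia of replicates 1 and 3. Of 4 central glia genes tested, 2 were higher in ganglia and 1 in liver, all at least 8-fold, and they are named after their values were seen. AQP4, the astrocyte water channel, had 52.4, 41.9, 25.5 and 31.1 CPM in ganglia and 0.754, 1.38, 0 and 0.555 CPM in liver (log2 fold change -6.02 ± 0.61 SE, adjusted p = 0.000204). MOBP, a myelin protein of oligodendrocytes, had 4.91 ± 0.757 CPM in ganglia and 0.0797 ± 0.0936 CPM in liver (SD, n = 4). SLC1A2, a glutamate transporter, had 75.2 ± 44.6 CPM in liver and 0.266 ± 0.129 CPM in ganglia (SD, n = 4). MOG was not called, and the oligodendrocyte genes OLIG1, OLIG2 and MOG were low in ganglia, at 0.0764, 0.0138 and 0.283 CPM.

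Skeletal muscle genes were higher in ganglia in 6 of 7 tested, and for these 6 all ganglion libraries lay above all livers. Over all genes tested the shares were 40.6% and 39.5%. The list's summed level in the ganglia of replicates 1 to 4 was 289, 17.7, 12.3 and 474 CPM, and in liver 22.3, 61.7, 42.8 and 39 CPM. ACTA1, the skeletal muscle actin, had 65.1, 1.27, 0.506 and 91.7 CPM in ganglia and 0.058, 0.06, 0.108 and 0.111 CPM in liver (log2 fold change -8.46 ± 1.12 SE, adjusted p = 0.000708, range -9.30 to -7.16 with each animal left out in turn). CKM, muscle creatine kinase, had 22.1, 0.29, 0.261 and 77.7 CPM in ganglia and 0.029, 0, 0 and 0 CPM in liver (log2 fold change -11.30 ± 0.54 SE, adjusted p = 9.8e-06, range -13.38 to -9.22 with each animal left out in turn). TTN, titin, was the largest part of the liver sum and was not called (log2 fold change 1.19 ± 0.76 SE, adjusted p = 0.197, range 0.51 to 1.92 with each animal left out in turn). Ganglion replicates 1 and 4 were the high ones for ACTA1, CKM and the sum. Without these 2 animals the median of the list was -4.41 in place of -8.46, and CKM was no longer called (-6.82, adjusted p = 0.0539). The part of muscle in the other ganglion results was not tested.

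Genes used by every cell shifted as groups, by amounts that depend on the scaling. Of all genes tested, 35.2% were higher in liver under TMM, and 2057 of 14192 under total counts. Cytosolic ribosomal proteins were higher in liver in 50 of 52 cases under TMM, with a median of 1.46. Under total counts 28 were, with a median of 0.31, and 2 were higher in ganglia. RPL4 had 911, 1015, 922 and 944 CPM in liver and 335, 311, 286 and 335 CPM in ganglia (log2 fold change 1.58 ± 0.13 SE, adjusted p = 7.68e-05), and 0.43 under total counts. Relative to the median of all genes, ribosomal proteins lay to the liver side. A change of scaling moves all genes by nearly the same amount, so this distance was bound to hold under both scalings. The mitochondrial genome's protein genes were higher in liver in 12 of 13 cases under TMM (median 1.05) and in none under total counts (median -0.10, 1 called higher in ganglia). Of 36 proteasome genes, 22 were higher in ganglia and 4 higher in liver under TMM (median -0.40), where 40.6% of all genes were higher in ganglia and their median was -0.10. Under total counts 36 were higher in ganglia and 0 in liver (median -1.55), where 9785 of all 14192 genes were higher in ganglia and their median was -1.25. PSMD1, a subunit of the regulatory particle, had 256, 266, 231 and 223 CPM in ganglia and 82.9, 71.9, 87.6 and 76.9 CPM in liver (log2 fold change -1.61 ± 0.11 SE, adjusted p = 4.3e-05).

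Values of the 4 animals lay close together for most genes. The median coefficient of variation of genes at 10 CPM or more was 12.5% over the 4 livers and 10.6% over the 4 ganglia. Among liver list genes at that level, those that varied most, named after their values were seen, were APOA4, an intestinal and hepatic apolipoprotein, at 95.6%, CYP7A1, the rate-limiting enzyme of bile acid synthesis, at 71.9%, and HAMP, the iron hormone hepcidin, at 71.3%. HAMP had 114, 430.2, 123 and 169.9 CPM in the 4 livers and CYP7A1 32.1, 41.3, 108 and 28 CPM. Each of these stayed above every ganglion library despite its spread. In ganglia the most variable list genes were those of muscle and HBB.

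Levels in the other control tissues were set beside the contrast, as CPM of total counts given as mean ± SD (n = 4 for each). Liver was the only tissue of the series outside the nervous system. Of the 2408 genes at least 8-fold higher in lumbar ganglia than in liver under TMM, 97.7% reached at least 0.5 times the lumbar level in cervical ganglia. Thoracic spinal cord, chosen among the cord levels after values of myelin genes were seen, reached at least 0.5 times the lumbar ganglion level for 46% of them and lay 8-fold or more below it for 19.2%. SCN11A was at 814 ± 243 CPM in lumbar ganglia, 913 ± 191 in cervical ganglia and 0.0555 ± 0.066 in thoracic cord. HTR3A was at 1137 ± 146, 1119 ± 167 and 0.669 ± 0.499 CPM. NEFM did not separate ganglia from cord to that degree, at 11765 ± 2654 CPM in lumbar ganglia and 539 ± 302 in thoracic cord, and MBP, a protein of central and peripheral myelin, was higher in cord, at 36831 ± 19458 CPM against 1389 ± 458 in lumbar ganglia. Lumbar cord held 3734 ± 4632 CPM of PMP22 and thoracic cord 197 ± 61.3 CPM.

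Position and liver identity could be read across the same tissues. HOXC10, a lumbar gene, was at 8.68 ± 1.55 CPM in lumbar ganglia, 0.0102 ± 0.0203 in cervical ganglia and 48.2 ± 22.6 in lumbar cord. HOXA9 was at 42.1 ± 6.95 CPM in lumbar and 0.941 ± 0.905 CPM in cervical ganglia, and its liver contrast was not called when cervical ganglia replaced lumbar (-1.88, adjusted p = 0.12). HOXB8 differed between ganglia by less than its spread, at 35.4 ± 3.81 CPM in lumbar and 29.9 ± 10.1 CPM in cervical ganglia. TF, which oligodendrocytes also make, was at 15169 ± 1422 CPM in liver, 4136 ± 1769.6 in thoracic cord and 354 ± 120.3 in lumbar ganglia. ALB was at 37.1 ± 42.2 CPM in thoracic cord and 0.189 ± 0.113 CPM in lumbar ganglia.

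**Figure D5:**
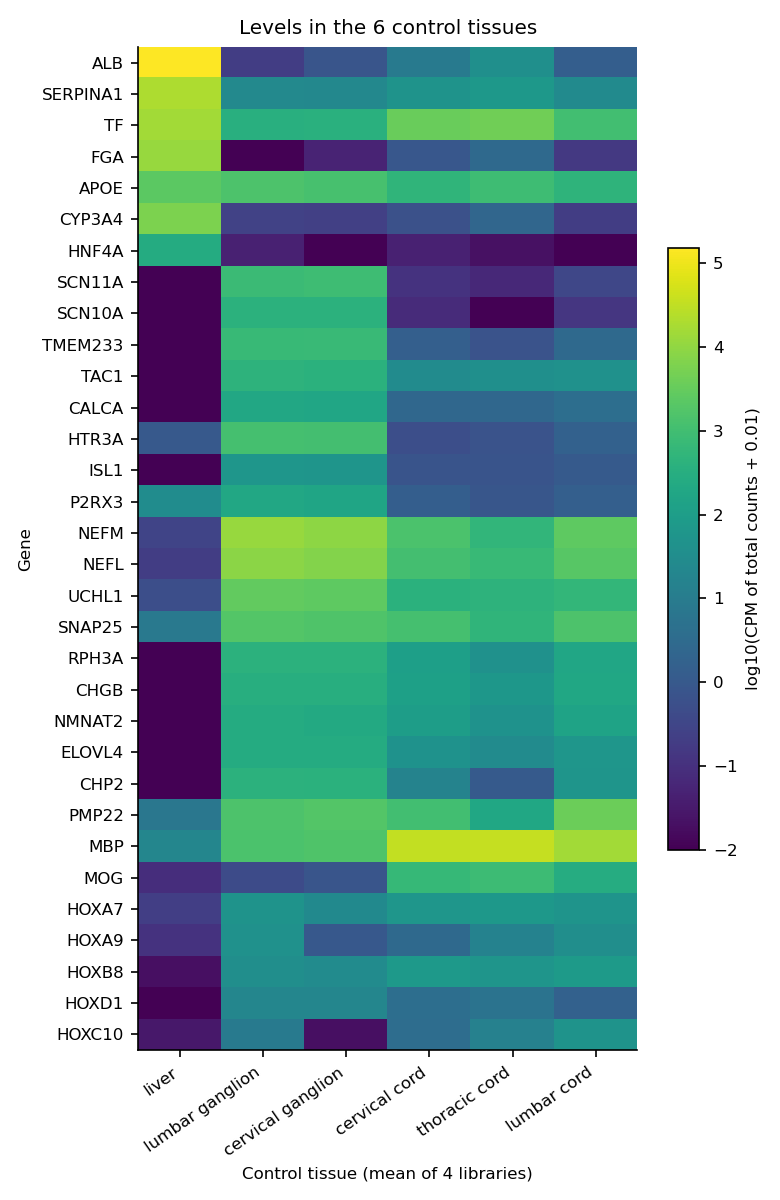
Mean level (log10 of CPM of total counts plus 0.01, 4 libraries per tissue) of selected genes in the 6 control tissues. Nociceptor genes such as SCN11A, SCN10A and HTR3A are high in both ganglia and low in the other 4 tissues, neurofilament and synaptic genes extend into the cord, MBP and MOG peak in cord, and HOXC10 is present in lumbar but not cervical ganglia.

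In dosed animals the same tissues were compared again, with 4 libraries each from 6 animals, of which 2 gave both tissues. There 4925 of 14287 genes were called higher in liver (34.5%) and 5690 higher in ganglia (39.8%). Of the 1032 genes at least 8-fold higher in control liver that could be tested, 1028 were called in the same direction and 917 were at least 8-fold higher. Of the 2358 such ganglion genes, 2326 were called in the same direction and 2086 were at least 8-fold higher. Across 14083 genes the log2 fold changes of the control and dosed comparisons, which share no library, correlated at 0.976 (Pearson's r, across genes, which are not independent replicates). Called genes went in opposite directions in 8 cases.

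A test of the difference between the control and dosed contrasts called 44 of 14667 genes (0.3%) in limma, with 1683 at an unadjusted p under 0.05. The difference moved towards liver in 39 of the 44 and towards ganglia in 5. Refits without each replicate number in turn called 0 to 2 genes. Among the list members, VAMP1, a vesicle fusion protein, went from a log2 fold change of -5.53 ± 0.21 SE in controls to -3.86 ± 0.19 in dosed animals (difference 1.71 ± 0.30 SE, adjusted p = 0.0274). NSF moved from -4.01 ± 0.17 to -2.98 ± 0.13 (difference 1.03 ± 0.18 SE, adjusted p = 0.0274), and PSMD2 from -1.42 ± 0.13 to -0.72 ± 0.11 (difference 0.70 ± 0.12 SE, adjusted p = 0.0275). All 3 remained higher in ganglia in dosed animals. No member of the 12 liver lists was called for such a difference.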

How the data were processed

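The authors deposited 1 table of raw read counts per gene name for 48 libraries. Per the file headers, the authors counted with featureCounts 1.4.6-p1, each mate as 1 read and without strand, on Macaca_fascicularis 5.0 (Ensembl release 94), and per the submitters' processing notes reads were aligned with STAR 2.5.3a. Per the labels' protocols, the TruSeq stranded mRNA libraries were read from both ends, 50 bases each.

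Counts of the 8 control libraries were tested with edgeR 4.0.16 under R 4.3.3, using TMM factors, its filter on low counts by tissue (14192 of 16842 genes kept), the animal as a block and the robust quasi-likelihood test, and p-values were adjusted by Benjamini-Hochberg over all genes tested. The pairing comes from the labels, which give both tissues the same animals. Deviations from the tissue means correlated at 0.0261 to 0.135 for the same animal and at -0.126 to 0.0664 for different animals. The dosed contrast used edgeR without a block, and the difference of contrasts limma 3.58.1 (voom, animal as random block). Alternatives were other scalings, filters and tools (limma, DESeq2 1.42.0), a 2-fold test, no block, cervical ganglia, all 24 control libraries, and each animal left out. The fits were tested on simulated data with known changes. That simulation changed a small set of genes equally in both directions and held no animal effect. It therefore does not test the scaling or the block.

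A gene with 0 counts in 1 tissue was set against a floor of 3 counts over its 4 libraries; floors and 95% intervals cover counting error only, and mates of 1 fragment are not independent. The members and the gene lists were chosen with earlier results of these data known. Named genes were the 10 largest differences each way with at least 10 CPM and no overlap, the members of each list with the highest means (up to 4), both members of each pair, HOX genes and members called against their list. PROS1, FAH, SERPINA7, CYP1A2, SCN3A, KCND3, MAG, SLC17A8, CSF1R, APOA4, CYP7A1 and HAMP were named after their values were seen. Some genes that this rule names, and 4 pairs with them, are not reported here.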

Additional observations from a re-analysis of the deposited data

Results flagged for a closer look

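In 26 of 267 groups of 4 values tested, 1 animal stood apart from the other 3 by Dixon's criterion. For normally distributed values chance alone meets it in about 1 of 20 groups. That rate does not hold for CPM near 0, and a tested group counted in 1 library only is always flagged, as for CALCB in liver. Some genes were also named after their values were seen, so 26 of 267 cannot be set against that rate. In liver replicate 1, APOD was high at 9.86 CPM (others up to 1.62), and CAT at 5407 CPM, RBP4 at 10660 CPM and CCL16 at 184 CPM were low. In liver replicate 2, NEFH at 15.1 CPM (others 3.54 to 4.06), MAG at 9.79 CPM and HOXC10 at 0.12 CPM (others 0) were high, while NSF at 36 CPM was low. The same liver had 11.8% of its counts from the mitochondrial genome, against 7.9 to 8.22% in the others. In liver replicate 3, CYP7A1 at 108 CPM (others 28 to 41.3), SCG3 at 1.14 CPM and TF at 24730 CPM were high. In liver replicate 4, CALCB at 0.167 CPM (others 0) was high and HOXB3 at 2.22 CPM low.

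In ganglion replicate 1, SLC17A8 at 5.24 CPM was high, NEFH was high at 4095 CPM (others 2057 to 2390 CPM), and GC was at 0.0595 CPM where the others had 0. In ganglion replicate 2, SCN9A at 263.9 CPM (others 215 to 220 CPM), KCND3 at 9.55 CPM and OLIG2 at 0.0552 CPM were high. In ganglion replicate 3, PCK1 at 5.52 CPM (others 0.58 to 1.42) and SERPINA7 at 0.0653 CPM were high and CYP7A1 at 0.163 CPM was low. In ganglion replicate 4, GYS1 was high at 25.1 CPM (others 19.9 to 20.3), HRG had 0, and the 10 most abundant genes held 8.9991% of counts where the others held 10.6 to 10.8%.

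The liver contrast differed between dosed and control animals for 3 list members by limma's test of the difference. It was less negative in dosed animals for VAMP1 by 1.71, for NSF by 1.03 and for PSMD2 by 0.70 on the log2 scale.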

How the results depend on the processing

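Of 97 comparisons of the summary values with an alternative, 80 were labelled as unchanged. For a count of genes this meant only that it stayed within a set ratio of the main value. For example, 3376 genes at least 8-fold higher in ganglia under total counts passed against 2408. For a share of counts it meant the same direction and the same side of the p threshold. Under total counts 2057 genes were called higher in liver and 9785 higher in ganglia, with 651 at least 8-fold higher in liver, and the median over all genes shifted by -1.15. It shifted by -0.12 under upper quartile scaling and by -0.11 with no filter, and by under 0.1 otherwise. Tested against a 2-fold difference, 2589 genes were called higher in liver. Without the animal as a block (no pairing) 5138 genes were called higher in liver and 5826 higher in ganglia, 1050 and 2359 of them at least 8-fold, and of the named genes only SCN7A lost its call while CD163 and DCN gained one. Without the animals of replicates 1 and 4, an alternative chosen after seeing the data, 3503 and 4357 were called. Leaving out each replicate in turn gave 4440 to 4764 and 5307 to 5537. The count of contrasts that differed between control and dosed animals fell from 44 to between 0 and 2 when each replicate was left out, and was 36 in edgeR without a block. With each replicate left out, the excess of liver in the 10 most abundant genes ran from 17.2 to 17.8 percentage points. For the 100 most abundant it ran from 28.96 to 29.8. In each case the unpaired exact permutation p was 0.1, the smallest that 3 against 3 allows. Without the mitochondrial genome and with all 4 animals, these excesses were 22.6 and 32.8 percentage points (exact permutation p = 0.0286 for each). The mitochondrial difference was -0.44 percentage points, and -1.33 to 0.296 with each replicate left out. List medians turned for cholangiocytes (0.22 to -0.93 under total counts and -1.21 with cervical ganglia), adipocytes (-0.66 to 0.054 with a minimum mean of 1 CPM and 1.11 with cervical ganglia), T, B and NK cells (0.35 to -0.80) and the mitochondrial genome (1.05 to -0.10) under total counts, and stellate cells and pericytes (-1.05 to 0.13 without the animals of replicates 1 and 4). Named genes that turned were CDH2 (-0.24), CSF1R (-0.31), ERBB3 (-0.35) and PFKL (-0.59) under total counts, GFRA3 (0.13), GYS1 (0.066) and HBB (0.016) with cervical ganglia, and HBB without replicate 1 (0.0017) or 3 (0.12), within a range of -1.40 to 0.12. SLC17A8 turned without replicate 1 (range -1.07 to 0.21). SCN3A, at -0.04, turned to 0.086 in limma, 0.14 without the block, 0.01 without replicate 2, 0.21 without replicate 3 (range -0.34 to 0.21), 0.23 with cervical ganglia and 0.19 with all 24 control libraries. Depth limits the ratios of genes with 0 to 3 counts in 1 tissue, for which bounds or intervals are given. The causes of these changes were not tested.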

Other observations

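Some genes on none of the lists also had 0 counts in 1 tissue and at least 10 CPM in the other. Of the 27 genes with 0 ganglion counts 15 were on no list, and of the 80 with 0 liver counts 65 were on none. The genes named here were chosen after their values were seen. In liver they included SPP2, a secreted phosphoprotein, at 669.8, 951, 585 and 610.1 CPM, at least 62076-fold higher, and SERPINA4, the kallikrein inhibitor kallistatin, at 481, 569.7, 467 and 458 CPM, at least 43728-fold higher. The glucuronosyltransferase UGT2A3 had 368, 429, 286 and 462 CPM in liver and the chemokine CCL16 184, 349, 337 and 329 CPM. CCL16 was lowest in liver replicate 1, and each of the 4 genes was counted in every liver.

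On the ganglion side such genes included ATP8A2, a phospholipid flippase, at 138, 169, 111 and 122 CPM, and PIRT, a membrane protein that binds TRPV1, at 83.9, 87.2, 75.8 and 76.5 CPM. LPAR3, a receptor for lysophosphatidic acid, had 84.5, 129.9, 129.7 and 79.5 CPM and KCNK18, the potassium channel TRESK, 36.5, 55.8, 70.5 and 49.7 CPM. PCSK1, a prohormone convertase, had 94.1, 107, 105 and 99.7 CPM and SLC6A15, a neutral amino acid carrier, 87.8, 76.4, 63.4 and 64.2 CPM. The lowest bound among these 6 was at least 2477-fold, for KCNK18.

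A gene named for glia of the brain was higher in liver. SLC1A2, a glutamate carrier that was listed as a marker of central glia, had 79.5, 135, 31.4 and 54.6 CPM in liver and 0.149, 0.276, 0.196 and 0.443 CPM in ganglia (log2 fold change 8.04 ± 0.43 SE, adjusted p = 1.54e-05). All 4 livers lay above all 4 ganglion libraries, and the livers themselves spread from 31.4 to 135 CPM. CCDC152 was among the 10 most abundant liver genes, at 0.743 ± 0.104% of counts (SD, n = 4). Its annotated span on chromosome 6, from 43318438 to 43370099 on the plus strand, was counted without regard to strand, so reads of an overlapping gene on the other strand cannot be told apart from its own.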
